A study of Mus musculus with 12 samples.

Results

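The liver makes most of the complement and clotting proteins of the blood, and 52 mouse genes of these cascades were followed here in livers with alcohol-associated steatohepatitis. The members were chosen by function, with earlier results of these data known. They are listed as genes of liver-made complement factors, clotting factors, fibrinolysis factors and their inhibitors, and each was found by its symbol in the GENCODE M21 annotation. All 52 symbols matched an Ensembl gene among the 54232 in the table. Of these, 51 passed the filter on low counts and were tested among 14168 genes, and the exception was Cfd.

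RNA of whole liver was sequenced in 12 male C57BL6/J mice, with 1 library per mouse and an age given as 8 weeks. Pair-fed (PF) mice, 5 in number, received a high-fat liquid diet without alcohol for 8 weeks. Alcohol-fed (AF) mice, 7 in number, received a high-fat liquid diet with alcohol at 27 g/kg/day and a weekly binge of 5 g/kg for the same 8 weeks, fed into the stomach through a tube. The methods of the study also name solid food, either a diet rich in cholesterol and saturated fat or regular chow, before the tube feeding, and the rich diet beside the liquid one. They do not say which mice were given chow, so a difference in solid food between PF and AF mice cannot be told apart from that in alcohol. Livers were taken 1 day after the final binge, so that chronic alcohol and the last binge cannot be told apart.

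Complement and coagulation are chains of serine proteases that circulate as inactive precursors, each cut and switched on by the one before it. Complement can start on antibody complexes, on sugars of microbes or by itself on foreign surfaces, and each route leads to the cleavage of C3 and C5 and to a pore built from C5b, C6, C7, C8 and C9. Clotting ends with thrombin turning fibrinogen into fibrin, and plasmin dissolves the clot. Hepatocytes secrete most of these proteins, and some come from endothelium, macrophages or adipocytes.

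Between 24129900 and 28594027 reads per PF liver and between 25099033 and 30578639 per AF liver were counted on genes. Levels are given as CPM, counts brought to a common library size with edgeR's TMM factors. These factors were 0.832 to 0.901 in PF livers and 0.880 to 1.36 in AF livers, with the highest in AF replicate 1. AF livers were tested against PF livers by edgeR's quasi-likelihood method, and each adjusted p is its Benjamini-Hochberg value over all 14168 genes, with a threshold of 0.05. Means are given with the SD over 5 PF and 7 AF livers. Hepatocyte markers were abundant in every liver, and the sum of 5 of them (Alb, Ttr, Apoa1, Apob and Rbp4) ranged from 90479 to 130514 CPM in PF and from 47068 to 99902 CPM in AF livers. Of these 5, Apoa1 fell (log2 fold change -1.21, standard error 0.219, adjusted p = 0.00117). The others did not pass the test, with log2 fold changes of -0.80 for Ttr, -0.60 for Alb, -0.29 for Apob and 0.20 for Rbp4 (adjusted p = 0.0564, 0.164, 0.254 and 0.432).

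Most members were lower in AF livers. By the edgeR test 28 of 51 (54.9%) fell, against 17.8% of all genes tested. Another 6 (11.8%) rose, against 22.0% of all genes, and 17 did not pass the test. In 23 members (45.1%) every AF liver lay below the lowest PF liver, which held for 9.49% of all genes. In 2 members, Plau and Plaur, every AF liver lay above the highest PF liver, which held for 8.20% of all genes. The median log2 fold change of the 51 members was -0.57, and that of all genes tested was 0.04. In whole tissue, fewer cells of a type and less RNA per cell cannot be told apart.

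Of the 21 complement members tested, 16 (76.2%) fell and 1 (4.76%) rose, with a median log2 fold change of -0.78. Of the 30 clotting and fibrinolysis members, 12 (40.0%) fell and 5 (16.7%) rose, with a median of -0.47. Of all genes tested 17.8% fell and 22.0% rose. On library totals 13 of the complement and 6 of the clotting and fibrinolysis members passed the test as lower, against 6.62% of all genes. Of the clotting and fibrinolysis members, 8 passed as lower without PF replicate 1 or without PF replicate 2. As higher, 3 of them passed without PF replicate 1, 2 or 5 or AF replicate 2, 3 or 4. Within complement the terminal factors had the lowest median (-1.42). Among the clotting genes the contact and intrinsic group held both the lowest log2 fold change of all members, -2.83 for F11, and genes close to 0.

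The scaling mattered for the members with small differences. On library totals without TMM factors, the median log2 fold change of all genes was higher by 0.36 and the split of all calls went from 3116 higher and 2519 lower to 6458 higher and 938 lower. With the same scaling 19 members were lower and 6 were higher, and the members' median log2 fold change was -0.26 against 0.40 for all genes. Of the 28 that fell, 18 passed the test in the same direction in every alternative, including each library left out in turn. These were C1ra, C4a, Masp2, Cfb, Cfi, C4bp, Hc, C6, C8a, C8b, C8g, C9, Klkb1, F11, F9, F7, F13b and Proz. Of the 6 that rose, 4 did so: Cfp, Plat, Plau and Plaur.

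**Figure D1:**
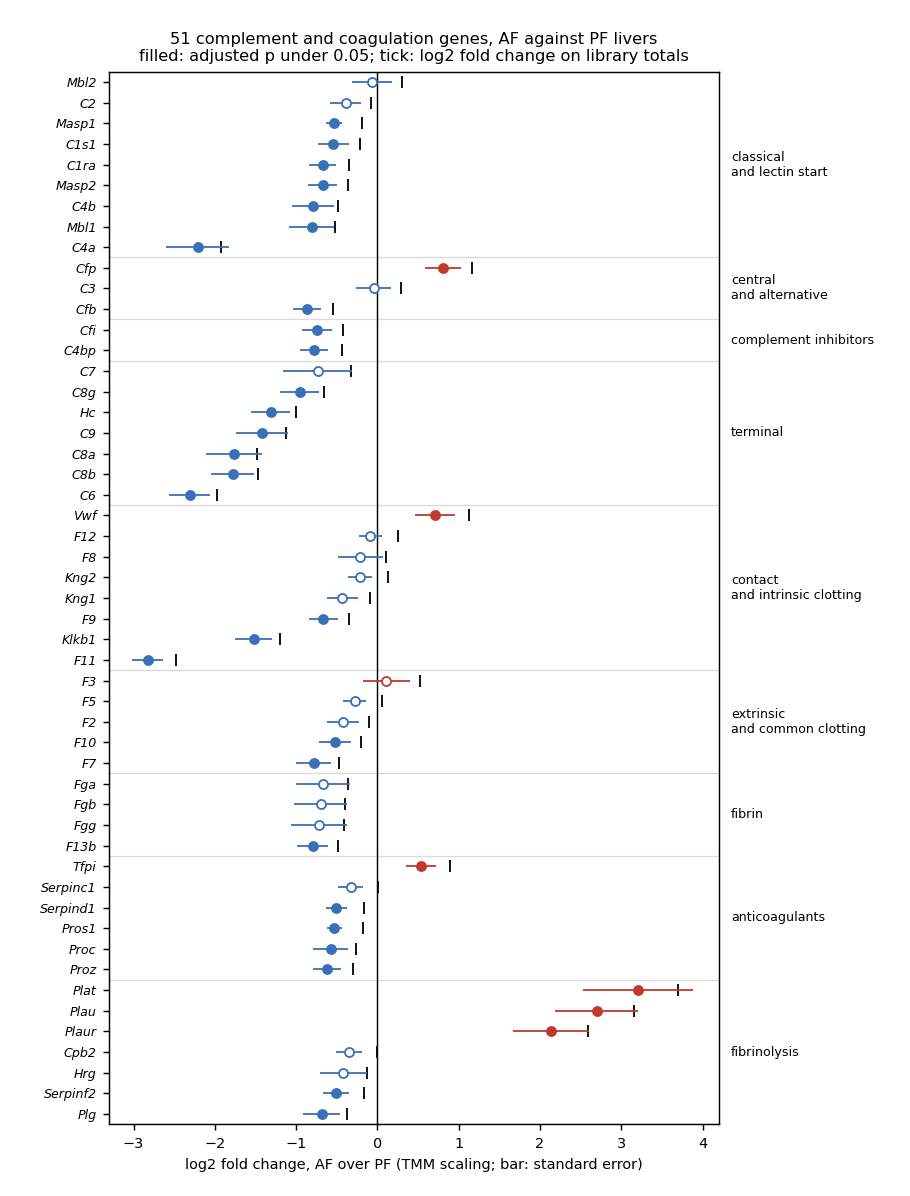
Log2 fold change of each of the 51 tested members, AF over PF, on the horizontal axis, with genes on the vertical axis in groups by role. Circles are TMM-scaled estimates with standard error bars and are filled where the adjusted p is under 0.05, and ticks are the estimates on library totals. F11, C6 and C4a lie farthest to the left, and Plat, Plau and Plaur lie farthest to the right.

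Levels of different genes can be compared per length of exon. In PF livers the most abundant members per kilobase were Fgg, Fga, C3, Fgb and Kng1, at 3623, 3171, 2590.4, 2227 and 1129.6 CPM per kb. The least abundant was Plat at 0.107 CPM per kb. In AF livers C3 ranked first at 2509 CPM per kb. C8a went from rank 12 to 21, C6 from 25 to 34 and F11 from 35 to 42 among the 52. Plau went from rank 47 to 43. All members together took between 5.77 and 6.88% of the counts in PF and between 4.26 and 6.92% in AF livers.

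The livers of the AF group were not alike. The median over the members of the log2 level relative to the PF mean was -1.17 in AF replicate 1, -0.89 in replicate 5, -0.81 in replicate 3 and -0.66 in replicate 4. It was -0.37 in replicate 2, -0.33 in replicate 7 and -0.27 in replicate 6. PF livers lay between -0.12 and 0.15. AF replicate 1 was the lowest AF liver for 21 of the 28 members that fell, replicate 5 for 6 and replicate 4 for 1. The highest AF liver was replicate 6 for 13 of the 28, replicate 7 for 8 and replicate 2 for 7. This order depends on the scaling, since the TMM factors of AF replicates 1, 3, 4 and 5 were all higher than those of replicates 2, 6 and 7. On library totals the medians were -0.52 in replicate 1, -0.49 in replicate 5, -0.34 in replicate 3, -0.25 in replicate 6, -0.18 in replicate 7, -0.15 in replicate 4 and -0.11 in replicate 2. The lowest AF liver was then replicate 5 for 12 of the 28 and replicate 1 for 9. The members together took 6.92% of the counts in AF replicate 4, the highest share of the 12 livers. With TMM factors AF replicate 1 also had the highest summed levels of the marker lists of recruited macrophages (467 CPM), of stellate cells and fibroblasts (869.8 CPM) and of bile ducts (41.5 CPM), and their part in the members' levels was not tested. Gpnmb alone made up 363 CPM of the recruited macrophage sum. Without AF replicate 1, 27 members fell and 5 rose, and of all 13953 genes then tested 2211 fell and 2699 rose.

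**Figure D2:**
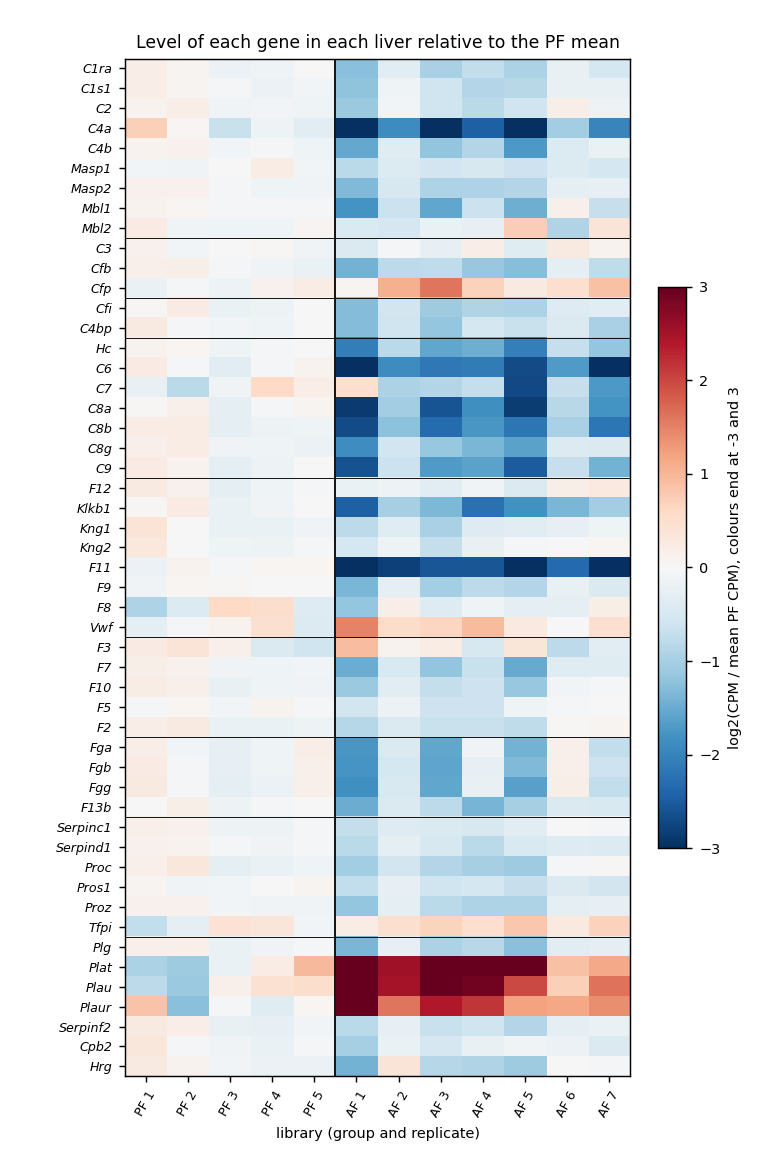
Level of each tested member (rows, grouped by role) in each of the 12 livers (columns) as log2 of CPM over the PF mean, with blue below and red above it and colours ending at -3 and 3. The blue is deepest in AF replicates 1, 3 and 5 for most rows, palest in AF replicate 6, and unbroken across all AF livers for F11 and C6.

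Of 9 members of the classical and lectin routes, 7 (77.8%) fell, against 17.8% of all genes, and none rose, against 22.0%. The other 2 did not pass the test, and the median log2 fold change was -0.67. On library totals 4 passed the test as lower, against 6.62% of all genes. Without PF replicate 1, PF replicate 2 or AF replicate 3 the number was also 4. C1ra and C1s1 code for the proteases of the C1 complex, of which C1r activates C1s and C1s cuts C4 and C2. C1ra (chr6:124512405-124523443) measured 318, 292, 243, 251 and 275 CPM in the 5 PF livers and ranged from 116 to 236 with a median of 166 CPM in AF livers. Every AF liver was below every PF liver (log2 fold change -0.67, standard error 0.166, adjusted p = 0.00698). C1s1 measured 1044, 962, 869.8, 798 and 861 CPM in PF livers and ranged from 389.9 to 828 with a median of 595 CPM in AF livers, with 6 of 7 AF livers below the PF range. It fell (log2 fold change -0.54, standard error 0.188, adjusted p = 0.0352), but its adjusted p was 0.0805, 0.0728, 0.0568 and 0.0557 without PF replicates 1, 2, 3 and 5 and 0.0613, 0.0663 and 0.0598 without AF replicates 3, 4 and 5, and 0.151 on library totals. C2, the other target of C1s, ranged from 86.6 to 110.0 CPM in PF and from 44.0 to 108 CPM in AF livers and did not pass the test (log2 fold change -0.39, adjusted p = 0.117). Without AF replicate 6, the AF liver with the most C2, its adjusted p was 0.025, but C2 passed the test in only 2 of 20 alternatives.

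C4a and C4b are neighbouring copies of the C4 gene, and the product of C4a is known in mice as the sex-limited protein. The annotation used here classes C4b as protein-coding but C4a as a processed transcript. C4a (chr17:34809092-34823464) measured 40.8, 25.7, 15.5, 22.3 and 19.8 CPM in PF livers and ranged from 1.85 to 12.1 with a median of 4.57 CPM in AF livers. The groups did not overlap, and the gene was 4.63-fold lower in AF livers (log2 fold change -2.21, standard error 0.389, adjusted p = 0.00102, exact two-sided permutation p = 0.00126, the smallest that 792 splits of the livers can give). C4b (chr17:34728380-34743882) was far more abundant. It measured 1912, 1959, 1669.8, 1713 and 1633 CPM in PF livers and ranged from 535 to 1561 with a median of 966 CPM in AF livers, again without overlap (log2 fold change -0.79, standard error 0.256, adjusted p = 0.0254). Without PF replicate 1, PF replicate 2 or AF replicate 3 its adjusted p was 0.0503, 0.0564 and 0.0507. The log2 ratio of C4a to C4b was -6.24 ± 0.43 in PF and -7.70 ± 0.45 in AF livers, and the groups did not overlap in this ratio either. The transcripts of the copies share 30.6% of the 50-base windows of C4a, and those of C1ra share 48.0% with its copy C1rb, so reads from these stretches could have been assigned to either copy or dropped.

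The lectin route starts with mannose-binding lectins, which bind microbial sugars, and their proteases Masp1 and Masp2. Masp1 (chr16:23449417-23520815) measured 248, 245, 267, 310.3 and 251 CPM in PF livers and ranged from 151 to 200.4 with a median of 184 CPM in AF livers (log2 fold change -0.54, standard error 0.0985, adjusted p = 0.0013). Masp2 (chr4:148602554-148615499) measured 303, 306, 269, 256 and 258 CPM in PF livers and ranged from 111 to 236 with a median of 151 CPM in AF livers (log2 fold change -0.68, standard error 0.174, adjusted p = 0.00859). In both genes all AF livers were below all PF livers, although on library totals Masp1 had an adjusted p of 0.141. The lectin genes differed from each other. Mbl1 measured 282, 273, 254, 251 and 254 CPM in PF livers and 76.4, 89.9 and 94.8 CPM in AF replicates 1, 3 and 5, but 291 CPM in AF replicate 6, above every PF liver. It fell (log2 fold change -0.81, standard error 0.276, adjusted p = 0.0331), with adjusted p values of 0.062, 0.0636, 0.0552, 0.0542 and 0.0549 without PF replicates 1 to 5 in turn and of 0.0601 and 0.0568 without AF replicates 3 and 5. Mbl2 measured 503, 400.1, 390.0, 391 and 452 CPM in PF livers and ranged from 228 to 717 with a median of 362 CPM in AF livers. Here AF replicate 6 was the lowest and AF replicate 5 the highest liver of all, and the log2 fold change was -0.06 and turned to 0.30 on library totals (adjusted p = 0.85 with TMM factors).

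C3, where all routes meet, differed between the groups by less than its spread between livers. It measured 14650.5, 12589.9, 13384, 13578 and 12411 CPM in PF livers and ranged from 9932 to 16134 with a median of 13023 CPM in AF livers, so that 3 AF livers lay below and 2 above the PF range. The log2 fold change was -0.05 with a standard error of 0.213 (adjusted p = 0.878) and turned to 0.29 on library totals. Factor B (Cfb), the protease of the alternative C3 convertase, fell. Cfb (chr17:34856374-34862518) measured 136, 138, 117, 112 and 107 CPM in PF livers and ranged from 46.1 to 101 with a median of 70.5 CPM in AF livers, without overlap (log2 fold change -0.87, standard error 0.170, adjusted p = 0.00186). A predicted transcript on the same strand, Gm20547, covers most of the exon bases of Cfb and part of those of C2, so the counts of both genes are uncertain.

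Properdin (Cfp), which holds the alternative convertase together and is known as a product of myeloid cells, moved the other way. Cfp (chrX:20925454-20931555) measured 23.4, 26.2, 24.3, 29.3 and 31.3 CPM in PF livers and ranged from 28.5 to 81.4 with a median of 43.2 CPM in AF livers. AF replicate 1 lay within the PF range and the other 6 AF livers above it, and the gene rose (log2 fold change 0.81, standard error 0.226, adjusted p = 0.013). Of 6 Kupffer cell markers 5 (83.3%) rose as well, against 22.0% of all genes. Of these 5, Clec4f and Adgre1 did not pass in every alternative (highest adjusted p 0.111 and 0.0604). The sum of the 6 markers ranged from 616 to 886 CPM in PF and from 891 to 2782 CPM in AF livers. It was highest in AF replicate 3, the liver with the most Cfp, and lowest among AF livers in replicate 1, the AF liver with the least. The sum of the recruited macrophage markers was highest in AF replicate 1, at 467 CPM, of which Gpnmb made up 363 CPM. The part of these cells in the rise of Cfp was not tested.

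Factor D (Cfd), or adipsin, is the protease that activates factor B and is made mainly in adipose tissue. It had too few reads for the test. PF livers had 0.0492, 0.229, 0.0833, 0.236 and 0.136 CPM, AF replicates 2, 3, 4 and 5 had none, and AF replicates 6 and 7 had 0.112 and 0.246 CPM. A count of 0 allowed up to 3 counts, or 0.115, 0.0911, 0.0938 and 0.0855 CPM in the 4 livers without reads. AF replicate 1 alone had 3.71 CPM. Of 4 adipocyte markers, Adipoq, Plin1 and Lep were also highest in AF replicate 1, at 1.71, 0.570 and 0.0518 CPM, against at most 0.0417 CPM of Adipoq and no read of Plin1 or Lep in any PF liver. Cidec, the only marker of the list with enough reads for the test, rose in all AF livers above the PF range and was highest in AF replicate 6, at 33.8 CPM, against 24.1 CPM in AF replicate 1, so the sum of the list was also highest in AF replicate 6. That sum, 33.9 CPM, was almost all Cidec, since Adipoq and Lep had no read in AF replicate 6. Whether the sample of AF replicate 1 held adipose tissue was not tested.

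Both complement inhibitors among the members fell, against 17.8% of all genes tested. Cfi codes for factor I, which cuts C3b and C4b, and C4bp for the C4-binding protein, its cofactor. Cfi (chr3:129835884-129875332) measured 1233, 1419.5, 1044, 1072 and 1211 CPM in PF livers and ranged from 482 to 952 with a median of 636 CPM in AF livers (log2 fold change -0.74, standard error 0.181, adjusted p = 0.00633). C4bp (chr1:130634773-130661632) measured 1777, 1418, 1381, 1338 and 1452 CPM in PF livers and ranged from 599 to 1087 with a median of 928 CPM in AF livers (log2 fold change -0.78, standard error 0.170, adjusted p = 0.00355). No AF liver reached the lowest PF liver in either gene.

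The terminal genes, which build the membrane pore, fell with the exception of C7. Of the 7 tested, 6 (85.7%) fell, against 17.8% of all genes. In these 6 every AF liver lay below the lowest PF liver, which held for 9.49% of all genes. The same 6 also passed the test on library totals and with any 1 liver left out. Hc, the gene of C5 (chr2:34983331-35061438), measured 2488, 2419.8, 2113, 2227 and 2324 CPM in PF livers and ranged from 553 to 1434 with a median of 836 CPM in AF livers, 2.48-fold lower (log2 fold change -1.31, standard error 0.239, adjusted p = 0.00122). C6 (chr15:4727175-4814967), the first protein to join C5b, measured 643, 518, 430.1, 519.7 and 577 CPM in PF livers and ranged from 53.6 to 165 with a median of 121 CPM in AF livers. The fall was 4.97-fold (log2 fold change -2.31, standard error 0.256, adjusted p = 4.25e-05, exact permutation p = 0.00126). The highest AF liver, replicate 6, had 165 CPM against 430.1 CPM in the lowest PF liver. C9 (chr15:6445327-6498751), which polymerizes into the ring of the pore, measured 1602, 1452, 1124, 1214 and 1339.9 CPM in PF livers and ranged from 221 to 867 with a median of 445 CPM in AF livers (log2 fold change -1.42, standard error 0.317, adjusted p = 0.00401). C7 was barely detected in these livers. It ranged from 1.05 to 2.79 CPM in PF and from 0.285 to 2.64 CPM in AF livers (log2 fold change -0.74, adjusted p = 0.179). The highest AF value came from AF replicate 1, and without that liver C7 had a log2 fold change of -1.12 and an adjusted p of 0.0255. This was the 1 of 20 alternatives in which C7 passed the test.

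C8 has 3 chains from 3 genes. C8a measured 1590.4, 1721, 1296, 1520.2 and 1632 CPM in PF livers and ranged from 211 to 871 with a median of 437 CPM in AF livers, 3.40-fold lower (log2 fold change -1.77, standard error 0.342, adjusted p = 0.00176). C8b measured 595, 598, 421, 460.3 and 468 CPM in PF livers and ranged from 79.3 to 261 with a median of 113 CPM in AF livers, 3.44-fold lower (log2 fold change -1.78, standard error 0.265, adjusted p = 0.000346). These genes lie side by side on chromosome 4, C8b at chr4:104766317-104804548 and C8a at chr4:104815679-104876398, and their log2 ratio was 1.62 ± 0.15 in PF and 1.54 ± 0.35 in AF livers, with overlap. C8g, on chromosome 2, codes for a lipocalin chain that binds to C8a. It measured 266, 279, 224, 218 and 212 CPM in PF livers and ranged from 66.0 to 181 with a median of 109.6 CPM in AF livers, 1.94-fold lower (log2 fold change -0.96, standard error 0.241, adjusted p = 0.00777). The log2 ratio of C8a to C8g was 2.70 ± 0.17 in PF and 1.78 ± 0.45 in AF livers, with no overlap. These pairs were picked after their values were seen and were given no test.

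**Figure D3:**
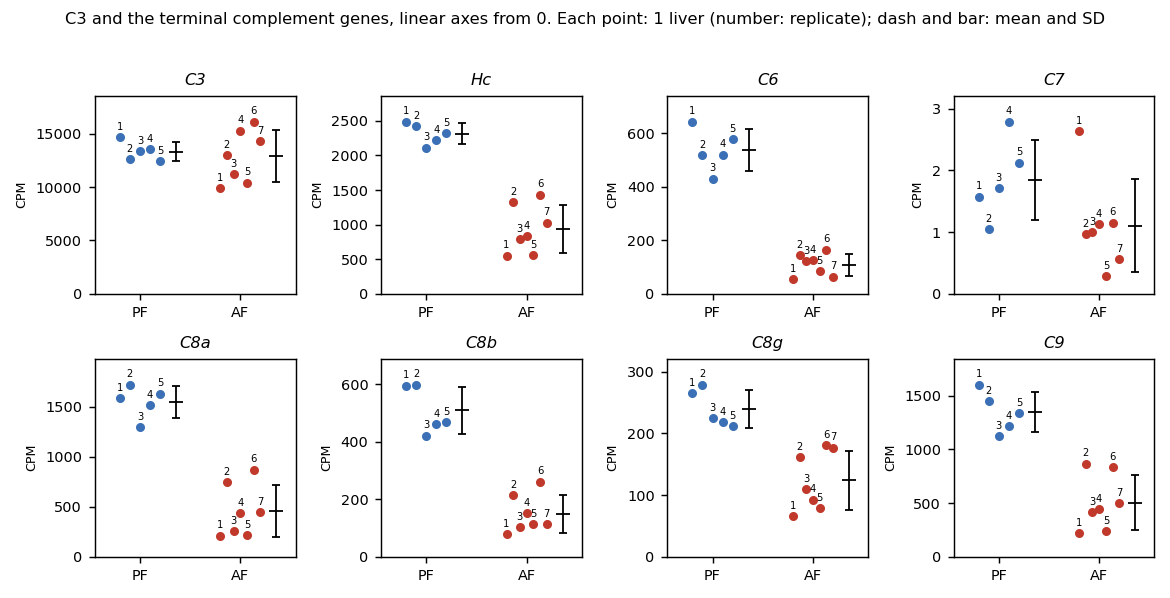
CPM (vertical axes, linear from 0) of C3 and the 7 terminal complement genes in each PF and AF liver, with the replicate number beside each point and the mean with SD at the right of each group. The AF livers overlap the PF livers for C3 and C7 and lie wholly below them for the other 6 genes.

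The stretch of 250 bases before the RefSeq start was searched in the 40 members for which one was at hand, on both strands, for short motifs of factors known to act on liver genes. Promoters of members with large or shared differences are printed here, starting with C8a and C8b, 5′ to 3′ in the direction of the gene, from RefSeq on GRCm38.p6. Capitals mark the motif GTTAAT, a half-site of HNF1, shown as ATTAAC where it lies on the opposite strand. The positions are chr4:104876399-104876648, minus strand, for C8a and chr4:104766067-104766316, plus strand, for C8b.
C8a: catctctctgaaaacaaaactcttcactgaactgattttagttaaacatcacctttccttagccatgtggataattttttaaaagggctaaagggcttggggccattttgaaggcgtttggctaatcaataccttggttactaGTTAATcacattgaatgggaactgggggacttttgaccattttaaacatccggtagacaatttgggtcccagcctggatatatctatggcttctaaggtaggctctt
C8b: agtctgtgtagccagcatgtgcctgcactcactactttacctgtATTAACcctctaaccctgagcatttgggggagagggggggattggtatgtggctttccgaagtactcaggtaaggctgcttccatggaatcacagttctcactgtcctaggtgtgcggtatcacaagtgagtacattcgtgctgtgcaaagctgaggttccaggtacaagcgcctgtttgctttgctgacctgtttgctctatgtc
The match began 107 bases before the start in C8a and 206 bases before it in C8b. GTTAAT was found in 11 of the 40 members (27.5%), or 25.6% of their 43 windows, and in 6.43% of all 32851 promoter windows of the same length. The 11 were C1ra, C4bp, C7, C8a, C8b, Cfp, F13b, Fga, Fgb, Hc and Proz. A match is a description of the sequence and was not tested as a site.

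In the contact and intrinsic route of clotting 3 of 8 members (37.5%) fell, against 17.8% of all genes, 1 (12.5%) rose, against 22.0%, and 4 did not pass the test, with a median log2 fold change of -0.32. F11 fell more than any other member. It codes for factor XI, which is cut by factor XIIa or thrombin and activates factor IX. F11 (chr8:45241174-45262031) measured 116, 140.2, 125, 136 and 137 CPM in PF livers and ranged from 11.6 to 26.0 with a median of 18.9 CPM in AF livers. The lowest PF liver thus had 116 CPM and the highest AF liver 26.0 CPM. The means were 131 ± 10.2 CPM in PF and 18.4 ± 5.42 CPM in AF livers, a 7.10-fold difference (log2 fold change -2.83, standard error 0.186, adjusted p = 5.09e-07, exact permutation p = 0.00126). Only 0.635% of the genes tested had a lower log2 fold change. The log2 fold change was between -2.93 and -2.74 with any 1 liver left out and -2.48 on library totals.

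Klkb1, the gene of plasma prekallikrein, is the neighbour of F11 on chromosome 8, and the proteins are close relatives. Klkb1 (chr8:45266689-45294859) measured 263, 305, 223, 237 and 254 CPM in PF livers and ranged from 47.3 to 128 with a median of 99.2 CPM in AF livers, 2.87-fold lower without overlap (log2 fold change -1.52, standard error 0.230, adjusted p = 0.000388). The transcripts of F11 and Klkb1 share none of their 50-base windows. The log2 ratio of F11 to Klkb1 was -0.97 ± 0.18 in PF and -2.24 ± 0.64 in AF livers, with no overlap, and that of F11 to albumin was -9.41 ± 0.20 in PF and -11.65 ± 0.60 in AF livers, also with no overlap. Ratios to albumin did not overlap for C6, C8a, C8b, Klkb1 and C4a either, but for Hc and C9 they did, with differences in the mean log2 ratio, AF minus PF, of -0.76 and -0.94. Only the members with the lowest log2 fold changes were paired with albumin, after their values were seen. A gap was thus favoured by the choice, and the ratios were given no test. F9, which is activated by factor XIa, measured 343, 387, 379.7, 365 and 369.8 CPM in PF livers and ranged from 143 to 318 with a median of 216 CPM in AF livers, all below the PF range (log2 fold change -0.66, standard error 0.178, adjusted p = 0.0104). Another gene model on the same strand, Gm45753, covers part of the exons of Klkb1.

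The promoters of these neighbours are printed because both genes fell and both hold the motif TTGCNNAA, the core of a C/EBP site, here on the opposite strand and in capitals as its reverse complement. The positions are chr8:45262032-45262281, minus strand, for F11 and chr8:45294836-45295085, minus strand, for Klkb1.
F11: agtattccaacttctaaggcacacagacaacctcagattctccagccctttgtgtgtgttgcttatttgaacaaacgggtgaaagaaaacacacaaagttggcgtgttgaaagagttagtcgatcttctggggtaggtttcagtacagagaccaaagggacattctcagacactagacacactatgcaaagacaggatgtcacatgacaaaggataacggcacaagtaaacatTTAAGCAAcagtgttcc
Klkb1: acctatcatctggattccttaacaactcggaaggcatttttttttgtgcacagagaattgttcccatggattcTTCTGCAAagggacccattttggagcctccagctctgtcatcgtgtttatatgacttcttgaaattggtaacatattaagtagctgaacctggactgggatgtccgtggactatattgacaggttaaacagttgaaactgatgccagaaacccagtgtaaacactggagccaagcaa
The match began 17 bases before the start in F11 and 177 bases before it in Klkb1. TTGCNNAA was found in 11 of the 40 members (27.5%), or 25.6% of their 43 windows, and in 9.56% of all windows. The 11 were C1s1, C3, C9, F11, F9, Fga, Fgb, Hrg, Klkb1, Kng2 and Plaur. The motif CAAAGTCCA, one form of an HNF4 site, was found in 0 of the 40 members and in 0.384% of all windows.

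The other genes of the contact system did not pass the test. F12, the first protease of the route, measured 233, 210.3, 159, 174 and 183 CPM in PF livers and ranged from 143 to 233 with a median of 172 CPM in AF livers (log2 fold change -0.09, or 0.26 on library totals, adjusted p = 0.644). The kininogens carry prekallikrein and factor XI in plasma and release bradykinin. Kng1 measured 4843, 3711, 3197, 3179.6 and 3427 CPM in PF livers and ranged from 1869.9 to 3356 with a median of 2874 CPM in AF livers (log2 fold change -0.43, adjusted p = 0.0865). Kng2 ranged from 411 to 568 CPM in PF and from 278 to 474 CPM in AF livers (log2 fold change -0.21, or 0.13 on library totals, adjusted p = 0.273). In both kininogens PF replicate 1 was the highest liver, and in Kng1 only AF replicate 7 reached the PF range. Kng1 over Kng2, as a log2 ratio, was 2.99 ± 0.07 in PF and 2.78 ± 0.04 in AF livers, a small difference without overlap. Their transcripts share 17.2% of the 50-base windows of Kng1.

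F8 and Vwf are known as products of endothelium. F8, the cofactor of factor IXa, measured 14.4, 20.6, 41.4, 39.1 and 20.9 CPM in PF livers and ranged from 12.2 to 31.3 with a median of 22.4 CPM in AF livers (log2 fold change -0.21, or 0.10 on library totals, adjusted p = 0.562). Vwf, which carries factor VIII and binds platelets, measured 2.90, 3.39, 3.83, 4.92 and 2.67 CPM in PF livers and ranged from 3.54 to 9.95 with a median of 5.19 CPM in AF livers. AF replicate 1 was the highest and AF replicates 5 and 6 lay within the PF range. It rose (log2 fold change 0.71, standard error 0.248, adjusted p = 0.0364). Its adjusted p was 0.0808, 0.0738, 0.0587 and 0.0895 without PF replicates 1, 2, 3 and 5, and 0.0594, 0.051, 0.0518 and 0.0649 without AF replicates 1 to 4. Of 6 endothelial markers 1 (16.7%) rose, a share below the 22.0% of all genes, and none fell, and their sum ranged from 131 to 287 CPM in PF and from 183 to 299.7 CPM in AF livers. Of 3 platelet markers tested 2 (66.7%), Pf4 and Itga2b, rose, against 22.0% of all genes. Itga2b did not pass in every alternative (highest adjusted p 0.113). Ppbp did not pass the test (log2 fold change -0.68, adjusted p = 0.352). The sum of the list ranged from 2.20 to 3.89 CPM in PF and from 3.19 to 6.27 CPM in AF livers. The part of these cells in the level of Vwf was not tested.

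In the extrinsic and common route 2 of 5 members (40.0%) fell, against 17.8% of all genes, and none rose, against 22.0%. On library totals, where 6.62% of all genes fell, F7 also passed the test and F10 did not. F3, tissue factor, starts the route and was low in every liver, from 2.08 to 4.12 CPM in PF and from 1.82 to 6.01 CPM in AF livers (log2 fold change 0.11, adjusted p = 0.79). Without AF replicate 1 or PF replicate 5 its log2 fold change was -0.089 or -0.017. F7, the partner of tissue factor, lies beside F10 and Proz on chromosome 8. F7 (chr8:13026034-13035809) measured 101, 98.2, 84.0, 82.2 and 85.1 CPM in PF livers and ranged from 31.5 to 70.6 with a median of 56.4 CPM in AF livers, all below the PF range (log2 fold change -0.79, standard error 0.211, adjusted p = 0.0107). F10 (chr8:13037308-13056676), the protease at which both routes meet, measured 454, 428, 334, 355 and 360.0 CPM in PF livers and ranged from 177 to 370.1 with a median of 253 CPM in AF livers, with 2 AF livers inside the PF range. It passed the test narrowly (log2 fold change -0.52, standard error 0.197, adjusted p = 0.049) and did not pass in 12 of 20 alternatives (adjusted p from 0.0065 to 0.213 over all of them), among them the leaving out of any PF liver or of AF replicate 1, 3, 4 or 5. Its adjusted p was 0.109, 0.103, 0.057, 0.067 and 0.0693 without PF replicates 1 to 5 in turn and 0.0802, 0.0876, 0.0796 and 0.0758 without AF replicates 1, 3, 4 and 5. As a log2 ratio, F7 over F10 was -2.09 ± 0.07 in PF and -2.38 ± 0.15 in AF livers, without overlap.

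F5 and F2 did not pass the test. F5, the cofactor of factor Xa, ranged from 876 to 1004 CPM in PF and from 601 to 921 CPM in AF livers (log2 fold change -0.28, or 0.054 on library totals, adjusted p = 0.138). F2, prothrombin, measured 1578, 1656, 1211, 1210.0 and 1241 CPM in PF livers and ranged from 761 to 1457 with a median of 873 CPM in AF livers (log2 fold change -0.42, adjusted p = 0.0999). AF replicates 6 and 7 lay inside the PF range of F2 and the other 5 below it. Without AF replicate 6 or AF replicate 7 the adjusted p of F2 was 0.0376 and 0.0393, but F2 passed the test in only 4 of 20 alternatives.

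**Figure D4:**
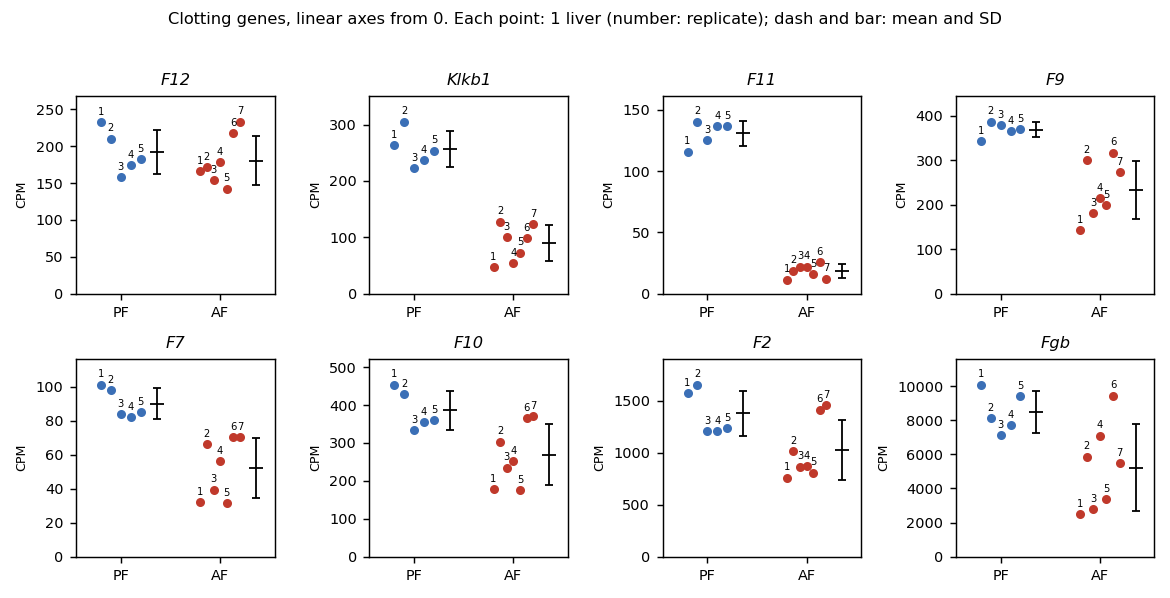
CPM (vertical axes, linear from 0) of 8 clotting genes in each PF and AF liver, with replicate numbers and the mean with SD beside each group. AF livers lie apart from PF livers for F11, Klkb1, F9 and F7, while 5 of 7 AF livers for F10 and F2 and 6 of 7 for Fgb lie below the PF range and the others within it. For F12 the ranges overlap widely.

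The fibrinogen chains spread widely among AF livers. Fga, Fgb and Fgg code for the 3 chains of the clot protein and lie together on chromosome 3. Fga (chr3:83026076-83033627) measured 10938, 9065, 8084, 8771 and 10872 CPM in PF livers and 2855, 7058, 3248, 8865, 3597, 10607 and 5741 CPM in AF replicates 1 to 7. AF replicates 4 and 6 thus lay in the PF range, and replicates 1, 3 and 5 had less than any other liver. Fgb ranged from 7131 to 10081 CPM in PF and from 2491 to 9441 CPM in AF livers, and Fgg from 6303 to 9132 CPM in PF and from 2116 to 8575 CPM in AF livers. None passed the test: the log2 fold changes were -0.67, -0.70 and -0.72 with adjusted p = 0.122, 0.0992 and 0.109. Without AF replicate 6, a liver at the PF level, the values were -0.87, -0.91 and -0.94 with adjusted p = 0.0347, 0.0224 and 0.0256. With other livers left out the adjusted p went up to 0.207, 0.18 and 0.195. Fga, Fgb and Fgg passed the test in 2, 3 and 2 of 20 alternatives.

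The ratios between the 3 chains overlapped between the groups. The log2 ratio of Fga to Fgb was 0.17 ± 0.03 in PF and 0.19 ± 0.09 in AF livers, that of Fgg to Fgb was -0.16 ± 0.03 in PF and -0.21 ± 0.12 in AF livers, and that of Fga to Fgg was 0.34 ± 0.06 in PF and 0.39 ± 0.09 in AF livers. Each varied more among AF than among PF livers, and Fgg to Fgb reached -0.45 in an AF liver, against -0.20 to -0.13 in PF livers. The level of Fga itself lay between 2855 and 10607 CPM among AF livers. The 3 genes together took from 1.94 to 2.54% of the counts in PF and from 1.02 to 2.76% in AF livers. Their promoters are printed because the genes lie together and had similar log2 fold changes. Capitals mark GTTAAT or TTGCNNAA as above, or CTGGGAA, the core of an interleukin-6 response element, each on either strand. The positions are chr3:83025903-83026152, plus strand, for Fga, chr3:83049864-83050113, minus strand, for Fgb and chr3:83007474-83007723, plus strand, for Fgg.
Fga: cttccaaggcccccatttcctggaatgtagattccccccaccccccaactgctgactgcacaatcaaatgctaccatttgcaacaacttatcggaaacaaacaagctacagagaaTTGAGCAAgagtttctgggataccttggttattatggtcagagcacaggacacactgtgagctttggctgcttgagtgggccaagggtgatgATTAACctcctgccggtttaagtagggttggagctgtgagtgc
Fgb: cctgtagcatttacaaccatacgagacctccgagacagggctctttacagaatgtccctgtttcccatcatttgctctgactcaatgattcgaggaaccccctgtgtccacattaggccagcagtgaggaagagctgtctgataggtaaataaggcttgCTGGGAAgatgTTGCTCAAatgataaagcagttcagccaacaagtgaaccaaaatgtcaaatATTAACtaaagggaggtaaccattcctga
Fgg: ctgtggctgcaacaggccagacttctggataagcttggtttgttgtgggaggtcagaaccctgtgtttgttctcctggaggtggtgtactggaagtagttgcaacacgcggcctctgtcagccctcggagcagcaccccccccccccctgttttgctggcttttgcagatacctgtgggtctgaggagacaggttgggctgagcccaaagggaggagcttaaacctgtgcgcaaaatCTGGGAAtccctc
Fga held a C/EBP core 135 bases and an HNF1 half-site 43 bases before the start. Fgb held CTGGGAA 91 bases, a C/EBP core 80 bases and an HNF1 half-site 29 bases before the start, and Fgg held CTGGGAA 13 bases before it. CTGGGAA was found in 7 of the 40 members (17.5%), or 16.3% of their 43 windows, and in 9.10% of all windows. The matches in the printed windows did not overlap each other.

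F13b, the carrier subunit of the factor that cross-links fibrin, fell. F13b (chr1:139501702-139523752) measured 281, 320.1, 254, 271 and 284 CPM in PF livers and ranged from 101 to 209 with a median of 162 CPM in AF livers, with every AF liver below the PF range (log2 fold change -0.80, standard error 0.188, adjusted p = 0.00534).

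Of 6 anticoagulants 4 (66.7%) fell, against 17.8% of all genes, and 1 (16.7%) rose, against 22.0%. On library totals Proz was the 1 that passed the test as lower, and 6.62% of all genes did so. Pros1, the gene of protein S, the cofactor of activated protein C, measured 163, 143, 145, 156 and 163 CPM in PF livers and ranged from 91.9 to 129 with a median of 105 CPM in AF livers (log2 fold change -0.53, standard error 0.0932, adjusted p = 0.000978). Serpind1, heparin cofactor II, measured 1139, 1125, 999, 964 and 998 CPM in PF livers and ranged from 594 to 857 with a median of 759.6 CPM in AF livers (log2 fold change -0.51, standard error 0.128, adjusted p = 0.00775). Proz, the gene of protein Z, which helps to inhibit factor Xa, measured 535, 532, 459.8, 453 and 451 CPM in PF livers and ranged from 216 to 412 with a median of 277 CPM in AF livers (log2 fold change -0.62, standard error 0.172, adjusted p = 0.0124). In these 3 genes all AF livers lay below all PF livers, but on library totals the adjusted p of Pros1, Serpind1 and Proc was 0.137, 0.184 and 0.146. Proc, protein C itself, measured 213, 243, 157, 167 and 174 CPM in PF livers and ranged from 90.7 to 195 with a median of 104 CPM in AF livers, with AF replicates 6 and 7 inside the PF range. It was just past the threshold (log2 fold change -0.57, standard error 0.217, adjusted p = 0.0497) and did not pass in 13 of 20 alternatives (adjusted p from 0.000866 to 0.146 over all of them). With 1 PF liver left out its adjusted p was 0.0975, 0.129, 0.0531, 0.0616 and 0.0669 for PF replicates 1 to 5, and with AF replicate 1, 2, 3, 4 or 5 left out it was 0.0876, 0.0616, 0.0904, 0.0898 and 0.084.

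Antithrombin, from Serpinc1, is the main inhibitor of thrombin and factor Xa. It measured 2224, 2187, 1791, 1799.6 and 1928 CPM in PF livers and ranged from 1212 to 1958 with a median of 1525 CPM in AF livers and did not pass the test (log2 fold change -0.33, or 0.011 on library totals, adjusted p = 0.106). Tfpi, which blocks tissue factor with factor VIIa and is made largely by endothelium, was the anticoagulant that rose. It measured 5.91, 7.96, 13.4, 12.7 and 9.23 CPM in PF livers and ranged from 11.5 to 17.3 with a median of 14 CPM in AF livers, with 5 AF livers above the PF range (log2 fold change 0.54, standard error 0.187, adjusted p = 0.0353). Its adjusted p was 0.0719, 0.0899 and 0.0755 without PF replicates 1, 2 and 5, and 0.0544, 0.06, 0.0518, 0.0605 and 0.0557 without AF replicates 2, 3, 4, 5 and 7.

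Of 7 fibrinolysis members 2 (28.6%) fell, against 17.8% of all genes, and 3 (42.9%) rose, against 22.0%. The other 2 did not pass the test. On library totals 3 passed the test as higher, and 45.6% of all genes did so. None passed the test as lower on library totals or without PF replicate 1 or 2. Plg, plasminogen, the precursor of the protease that digests fibrin, fell. Plg (chr17:12378608-12419385) measured 3953, 3942, 3105, 3310.0 and 3480.1 CPM in PF livers and ranged from 1385 to 2985 with a median of 1987 CPM in AF livers, without overlap (log2 fold change -0.69, standard error 0.225, adjusted p = 0.0276). Without PF replicate 1, PF replicate 2 or AF replicate 3 its adjusted p was 0.0589, 0.0631 and 0.055, and on library totals it was 0.0532. Serpinf2, the gene of alpha-2-antiplasmin, which blocks plasmin, measured 1073, 1028, 756, 749 and 836 CPM in PF livers and ranged from 486 to 768 with a median of 588 CPM in AF livers (log2 fold change -0.51, standard error 0.161, adjusted p = 0.024). Only AF replicate 7 reached the lower end of the PF range, and without PF replicate 1 or 2 the adjusted p was 0.0653 and 0.0651. On library totals it was 0.244.

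Cpb2 and Hrg did not pass the test. Cpb2, a carboxypeptidase that trims plasmin's binding sites from fibrin, ranged from 691 to 1009 CPM in PF and from 397 to 737 CPM in AF livers (log2 fold change -0.35, adjusted p = 0.0991). Hrg, a plasma glycoprotein that binds plasminogen, ranged from 1336 to 1830.1 CPM in PF and from 563 to 1977 CPM in AF livers (log2 fold change -0.42, adjusted p = 0.259). AF replicate 2 had the most Hrg of all 12 livers.

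The plasminogen activators and their receptor had the highest log2 fold changes of all members, from low levels. Plat, tissue-type plasminogen activator (chr8:22757727-22782844), measured 0.344, 0.320, 0.583, 0.786 and 1.31 CPM in PF livers and 18.1, 3.93, 6.96, 6.51, 5.36, 1.23 and 1.48 CPM in AF replicates 1 to 7. AF replicate 6 lay within the PF range and the others above it. The gene rose 9.24-fold (log2 fold change 3.21, standard error 0.675, adjusted p = 0.00283, exact permutation p = 0.00379), and without AF replicate 1 the log2 fold change was 2.66 (adjusted p = 0.00281). Plau, urokinase (chr14:20836660-20843385), measured 1.33, 1.05, 2.54, 3.15 and 3.30 CPM in PF livers and 31.4, 12.8, 22.8, 16.9, 9.04, 3.72 and 7.07 CPM in AF replicates 1 to 7. All AF livers were above all PF livers (6.48-fold, log2 fold change 2.70, standard error 0.510, adjusted p = 0.00156). Plaur, the cell-surface receptor of urokinase (chr7:24462484-24475968), measured 1.18, 0.275, 0.625, 0.511 and 0.679 CPM in PF livers and ranged from 1.45 to 7.02 with a median of 2.00 CPM in AF livers, again without overlap (4.40-fold, log2 fold change 2.14, standard error 0.471, adjusted p = 0.00372).

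AF replicate 1 was the highest liver for Plat, Plau and Plaur, as it was for the recruited macrophage, stellate cell and bile duct lists. For the Kupffer cell and endothelium lists it was the lowest AF liver, at 891 and 183 CPM. Of 5 recruited macrophage markers 3 rose, and their sum ranged from 7.50 to 40.3 CPM in PF and from 28.7 to 467 CPM in AF livers. Of 6 stellate cell and fibroblast markers 5 (83.3%) rose, against 22.0% of all genes, with sums of 160.0 to 397 CPM in PF and 347 to 869.8 CPM in AF livers. Acta2 did not pass the test (adjusted p = 0.0599). All 4 bile duct markers rose, against 22.0% of all genes, with sums of 3.16 to 4.96 CPM in PF and 4.95 to 41.5 CPM in AF livers. However, Krt19, Epcam and Sox9 did not pass in every alternative (highest adjusted p 0.0509, 0.119 and 0.0505). None of 6 neutrophil markers passed the test, and their highest sum was 742 CPM in PF replicate 1. The part of these cells in the rise of the activators was not tested.

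**Figure D5:**
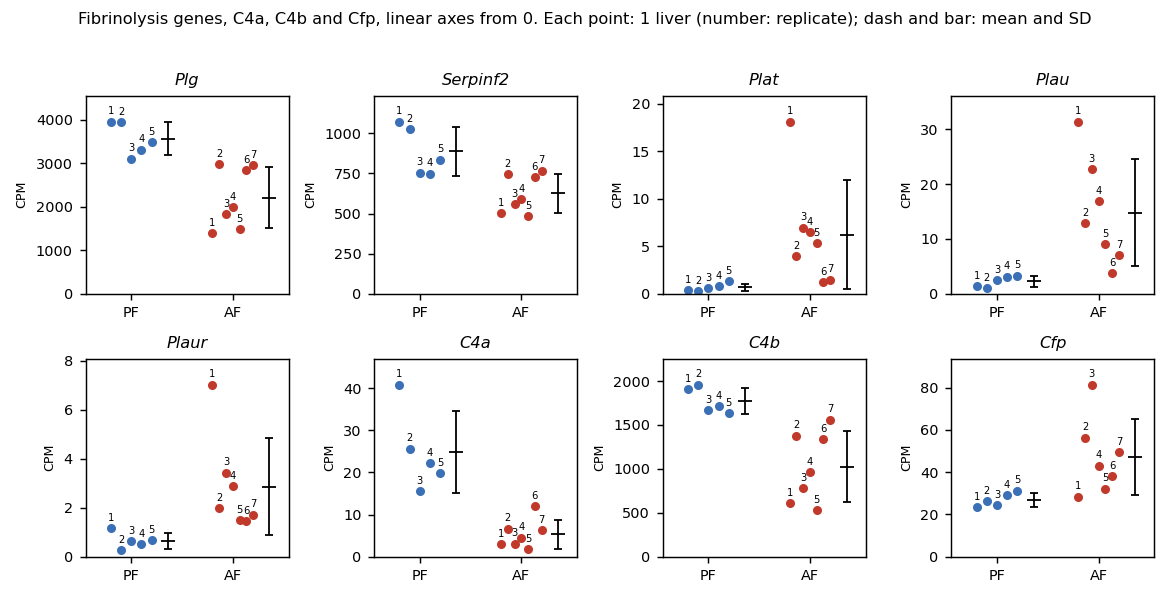
CPM (vertical axes, linear from 0) of 5 fibrinolysis genes and of C4a, C4b and Cfp in each PF and AF liver, with replicate numbers and the mean with SD beside each group. Plg and C4a are lower in every AF liver, Plau and Plaur are higher in every AF liver, and AF replicate 1 stands highest for Plat, Plau and Plaur.

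Other genes of the pathways, taken from a list of receptors, regulators and cell-made factors, were counted in the same way. Of 28 further complement genes 25 were tested, of which 9 rose and 5 fell (12 and 2 on library totals). Of all genes tested 22.0% rose and 17.8% fell (45.6% and 6.62% on library totals), so the share that fell, and on library totals the share that rose, was near that of all genes. The subunits of C1q, made by macrophages, rose in every AF liver above the PF range: C1qa was at 41.5 ± 5.83 CPM in PF and 89.7 ± 18.6 CPM in AF livers (log2 fold change 1.11, standard error 0.147, adjusted p = 0.000155), and C1qb and C1qc had log2 fold changes of 1.01 and 1.18 (adjusted p = 0.000752 and 0.000398). C1q thus rose while the genes of its proteases, C1ra and C1s1, fell. The anaphylatoxin receptors C3ar1 and C5ar1 rose, with log2 fold changes of 2.37 and 2.30 (adjusted p = 0.000494 and 0.00012), while C5ar2, the other C5a receptor, did not pass the test (log2 fold change 0.18, adjusted p = 0.436). C3 did not pass the test and Hc fell. Itgb2, a chain of the complement receptors of leukocytes, and Cd93 had log2 fold changes of 1.24 and 1.36 (adjusted p = 0.00323 and 0.00649).

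Of 28 further clotting and fibrinolysis genes 23 were tested, of which 9 rose and 4 fell (11 and 3 on library totals). Here 39.1% rose and 17.4% fell, against 22.0% and 17.8% of all genes, and on library totals the share that rose was near the 45.6% of all genes. Anxa2 and S100a10, which form a complex that binds plasminogen and Plat at the cell surface, rose with no overlap (log2 fold changes 2.62 and 1.10, adjusted p = 0.000122 and 0.000123). F2rl1, a receptor cut by clotting proteases, Procr, the receptor of protein C, and Thbs1 had log2 fold changes of 2.75, 1.22 and 2.62 (adjusted p = 0.0154, 0.0168 and 0.00383). F2rl1 did not pass with limma-voom (adjusted p = 0.105), and 3 AF livers lay within its PF range. Tfpi2 fell, with no overlap (log2 fold change -1.47, adjusted p = 0.000201).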

How the data were processed

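RNA sequencing was performed by the authors on whole liver of 5 PF and 7 AF mice. According to the study's methods and the submitters' processing notes, mRNA was enriched with oligo(dT), reads were checked with FastQC 0.10.1, aligned to GRCm38 (mm10) with TopHat2 2.0.13 and counted with HTSeq 0.10.0. The deposited table holds unnormalized counts of reads for each Ensembl gene. The annotation and strand setting of the counting are not given in the sources used here, so values of overlapping genes and near-identical copies are uncertain. A count of 0 allows 3 counts at 95% confidence, a limit on counting error alone because no molecular identifiers were used.

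Columns were matched to mice through the group and replicate in the column name. GENCODE M21 named 54165 of 54232 gene IDs. No library repeated another of its group, since the 31 pairs within groups differed by at least 20.2 times counting noise. In R 4.3.3, counts were scaled with TMM, filtered with filterByExpr by group and tested with edgeR 4.0.16 (quasi-likelihood, AF against PF, no covariate, Benjamini-Hochberg over 14168 genes, threshold 0.05). Standard errors were derived from the F statistic. Mean log2(CPM + 0.1) of single genes was also compared by an exact permutation test, two-sided, with 792 splits and a smallest p of 0.00126. Log2 ratios of genes, in pairs picked after the values were seen, are descriptions without a test. The p-values measure the spread between these mice.

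All members were named, together with those of 56 other pathway genes past the threshold with an absolute log2 fold change of at least 1. Of the latter, 2 genes that met the rule are counted in their lists but are not reported here. The members, gene lists and marker lists were chosen with earlier results of these data known. Alternatives were DESeq2 1.42.0, limma-voom (limma 3.58.1), RLE and upper-quartile factors, library totals, looser filters (at least 1 count in a library, or a mean of at least 10 counts), the replicate number as a block, and each library left out. In data simulated for this comparison over 13972 genes, edgeR recovered 64 of 96 genes changed by 1 on the log2 scale and 93 of 98 changed by 2, with 9 false calls, and DESeq2 made 37. The simulated counts were drawn with the spread that edgeR had estimated, the same for PF and AF livers. They therefore cannot show which calls of either method are false in the real livers. Promoter windows came from RefSeq on GRCm38.p6 and were matched by symbol. The marker Tf was not found as a symbol.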

Additional observations from a re-analysis of the deposited data

Results flagged for a closer look

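Values far from the rest of their group were looked for among 134 groups of values, those of 67 genes in each group of livers, and 10 lay beyond Dixon's 95% limit, where chance alone gives about 1 in 20, or 6.7. Among the members, AF replicate 1 stood above the other AF livers for Cfd (3.71 CPM), C7 (2.64 CPM), Plat (18.1 CPM) and Plaur (7.02 CPM). AF replicate 6 stood above the other AF livers for Mbl1 (291 CPM). PF replicate 1 stood above the other PF livers for C4bp (1777 CPM), Kng2 (568 CPM) and Cpb2 (1009 CPM), and it was also the PF liver with the highest summed neutrophil markers (742 CPM). Of the other pathway genes, C1qa was highest in AF replicate 3 (124 CPM) and Procr in PF replicate 5 (3.80 CPM).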

How the results depend on the processing

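The number of members lower in AF was 28, and it was 33 with DESeq2, 28 with limma-voom, 28 with RLE factors, 26 with upper-quartile factors, 19 on library totals, 25 with a filter of at least 1 count, 28 with a filter at a mean of 10 counts and 21 to 33 with 1 library left out. Over all genes the number lower was 2519, and 2929 with DESeq2, 2580 with limma-voom, 2678 with RLE factors and 2161 with upper-quartile factors. It was 938 on library totals, 2258 and 2535 with the looser filters and 2119 to 2923 with 1 library left out. The number of members higher in AF was 6 and lay between 4 and 6 with 1 library left out. It was 5 with limma-voom and 6 with the others named. Over all genes the number higher was 3116, and 2618 with limma-voom, 6458 on library totals and 2519 to 3574 with 1 library left out. Signs turned only in members that did not pass the test. On library totals the log2 fold changes were 0.30 for Mbl2, 0.29 for C3, 0.26 for F12, 0.13 for Kng2, 0.10 for F8, 0.054 for F5 and 0.011 for Serpinc1, and C3 was at 0.0073 with upper-quartile factors. With 1 library left out, F3 ranged from -0.089 to 0.21, C3 from -0.11 to 0.012 and Mbl2 from -0.25 to 0.038. On library totals C1s1, Masp1, Mbl1, F10, Serpind1, Proc, Pros1, Plg and Serpinf2 no longer passed the test, and the median log2 fold change of all genes was higher by 0.36. The causes of these differences were not tested.

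The replicate numbers of the groups are only shared numbers, since correlations of same-numbered livers ranged from -0.07 to 0.12. With the replicate block, to which AF replicates 6 and 7 add nothing, 34 members were lower and 6 higher, and C2, F2, Fga, Fgb, Fgg and Hrg passed the test in addition (log2 fold changes -0.64, -0.67, -1.04, -1.09, -1.13 and -0.76). Over all genes 2940 were then lower and 3395 higher, against 2519 and 3116 in the main test. DESeq2 added Kng1, F2, Fgb, Serpinc1 and Cpb2. Depth limited the values of Cfd, and those of C7, Plat and Plaur rest on few reads in single livers.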
